A study of Mus musculus with 8 samples.

Results

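The orphan nuclear receptor gene Nr0b2 and 9 genes of bile acid sensing, synthesis and transport were followed across 8 expression arrays of mouse hepatocytes. The genes were Nr0b2 and Nr1h4 (receptors), Cyp27a1 and Cyp7b1 (synthesis), Slc10a1 (uptake), Abcb11 and Abcc2 (export into bile), and Abcc3, Slc51a and Slc51b (export towards blood). Every probe set that the platform annotation assigns to 1 of these 10 symbols was used, which gave 14 probe sets of the 34944 that name a single gene, and 10 of 18192 genes. The list was selected on earlier results of these same arrays: Nr0b2, Slc51b and Abcc2 had stood among the genes that were higher with retinoic acid (RA), and Nr0b2 among those lower with v-erbA. The RA values of all 10 genes and the v-erbA difference of Nr0b2 are therefore given as descriptions without a test.

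The cells were AML12, a hepatocyte line established from a mouse that carried a transforming growth factor alpha transgene, and AML12 cells transfected with v-erbA, the oncogene of avian erythroblastosis virus, which encodes an altered thyroid hormone receptor. Treatment was 1 µM RA or none, for 3 h or 24 h. The groups were thus untreated AML12, AML12 with RA, untreated v-erbA AML12 and v-erbA AML12 with RA, each at 3 h and at 24 h, with 1 array per group. The vector, its promoter and the number of transfected clones are not stated in the labels, and the effect of v-erbA cannot be told apart from that of transfection or clone. The description field contradicts the title for 3 of the 4 samples titled 24 h, since it names 3 h; titles were followed. Nothing in the labels says that the arrays came from separate cultures, so an adjusted p-value here reflects only how much the 8 arrays vary around the fit, which may be technical. The design text names as its question which RA-regulated genes are expressed differently in the presence of v-erbA.

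Bile acids are made from cholesterol in hepatocytes and circulate between liver and gut. Nr1h4 encodes FXR, the nuclear receptor that binds bile acids; as a partner of the retinoid X receptor it is known to raise Nr0b2, Abcb11, Slc51a and Slc51b. The product of Nr0b2, SHP, has no DNA-binding domain and represses other receptors, and in liver it is known for lowering bile acid synthesis. In cholestasis, hepatocytes are known to export bile acids across the basolateral membrane through Abcc3 and the Slc51a-Slc51b heterodimer.

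The promoters of the 3 genes that had been known as higher with RA are shown because receptors for RA and for bile acids bind hexamers related to AGGTCA. The RefSeq promoter table (GRCm38.p6) gives 250 bases before and 50 after each start site and held 9 windows for 8 of the 10 genes. Searched on both strands, overlaps allowed, were AGGTCA (in 16.3% of all windows), GGGTCA (in 13.7%), AGTTCA (in 14.0%) and GGTTCA (in 10.4%); matches are in capitals.
Nr0b2, chr4:133553126-133553425, plus strand: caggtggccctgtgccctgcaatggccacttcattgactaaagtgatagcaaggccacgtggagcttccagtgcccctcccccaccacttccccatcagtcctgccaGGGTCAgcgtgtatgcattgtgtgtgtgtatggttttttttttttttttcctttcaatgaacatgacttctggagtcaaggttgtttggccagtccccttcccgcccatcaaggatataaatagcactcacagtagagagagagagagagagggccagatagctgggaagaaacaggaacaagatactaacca
Slc51b, chr9:65422724-65423023, minus strand: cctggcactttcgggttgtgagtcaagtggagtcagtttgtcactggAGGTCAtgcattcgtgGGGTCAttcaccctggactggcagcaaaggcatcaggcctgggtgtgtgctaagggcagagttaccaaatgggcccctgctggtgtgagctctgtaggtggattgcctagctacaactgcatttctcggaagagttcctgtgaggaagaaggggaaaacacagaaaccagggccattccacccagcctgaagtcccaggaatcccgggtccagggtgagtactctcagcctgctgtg
Abcc2, chr19:43782058-43782357, plus strand: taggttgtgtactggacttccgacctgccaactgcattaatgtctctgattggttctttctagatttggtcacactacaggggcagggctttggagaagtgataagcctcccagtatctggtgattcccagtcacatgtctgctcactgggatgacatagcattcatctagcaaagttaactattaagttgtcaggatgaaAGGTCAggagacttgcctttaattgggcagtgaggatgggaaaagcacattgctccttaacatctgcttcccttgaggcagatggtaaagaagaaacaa

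Nr0b2 held 1 hexamer, GGGTCA at position -143 from the start site. Slc51b held 2 on the same strand, AGGTCA at -203 and GGGTCA at -187, and Abcc2 held 1, AGGTCA at -49. At least 1 of the 4 hexamers was found in 8 of the 9 windows, against 43.7% of all 32851 windows of this length, and at least 2 in 13.1% of all windows. The direct repeat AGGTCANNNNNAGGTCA and the inverted repeat AGGTCANTGACCT had 0 matches in the 9 windows and occurred in 0.00913% of all windows each. A match describes letters and does not show binding.

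Signals are in the linear units of the deposited table, whose array medians lay between 71.2 and 76.1. The pooled median, 73.5 units, served as the level under which a signal was called dim, since no detection calls were used. Differences are on the scale log2(signal + 19.95), which understates changes of dim genes. The cells carried hepatocyte markers: all 8 measured, among them Alb, Ttr and Hnf4a, lay above that median on all 8 arrays, with summed signals of 40381 to 45770 in AML12 and 36567 to 37559 with v-erbA. Biliary markers were also present (4 of 6 above it on all arrays, summed 4876 to 6029 in AML12 and 3400 to 4236 with v-erbA). Of the endothelial markers 0 of 5, of the macrophage markers 1 of 5 (Csf1r) and of the mesenchymal markers 1 of 6 (Col1a2) did so. Csf1r ran from 78.5 to 190 units and Col1a2 from 102 to 211. Kdr, Tek, Adgre1, Des and Col1a1 exceeded the median on at least 1 array. Pecam1, Cdh5, Stab2, Cd68, Clec4f, Ptprc, Col3a1, Pdgfrb and Lrat were dim throughout. Lower hepatocyte and biliary sums moved with v-erbA, and their part in the differences below was not tested. These sums add raw signals of markers that varied unequally over the 8 arrays. Apoa1 ran from 200 to 7093 units and Krt19 from 1377 to 4190. Ttr ran from 10530 to 10880 and Epcam from 190 to 271. Which markers carried the lower sums was not tested. In such bulk RNA, fewer cells of a type and less RNA per cell cannot be told apart.

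**Figure D1:**
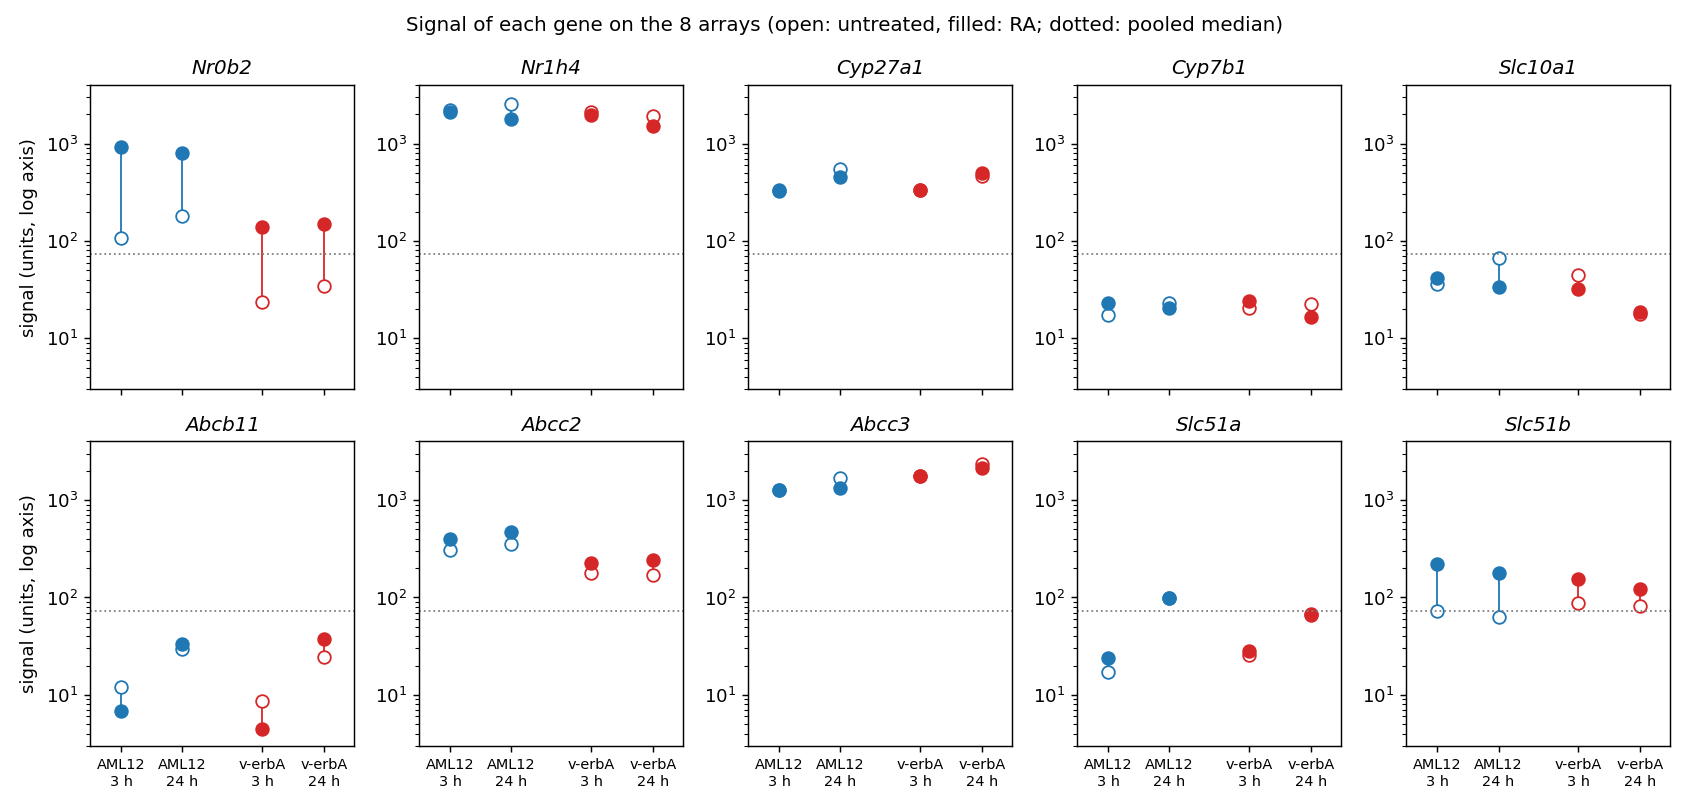
Signal of each gene on the 8 arrays on a log axis, open circles for untreated and filled circles for RA-treated cells, blue for AML12 and red for the v-erbA line; the dotted line is the pooled median of 73.5 units and each gene is shown by its brightest probe set. Nr0b2 spans 23.6 to 916 units, while Cyp7b1, Slc10a1 and Abcb11 lie below the dotted line on all arrays.

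Nr0b2 was the member that varied most with RA and with line. In AML12 its signal was 108 units untreated and 916 with RA at 3 h, and 181 untreated and 798 with RA at 24 h. In the v-erbA line it was 23.6 untreated and 139 with RA at 3 h, and 34.4 untreated and 148 with RA at 24 h. The highest values were thus the RA-treated AML12 arrays and the lowest the untreated v-erbA arrays, and the RA-treated v-erbA arrays lay within the range of untreated AML12.

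The RA response of Nr0b2 was 8.46-fold at 3 h and 4.41-fold at 24 h in AML12. With v-erbA it was at least 1.89-fold and at least 2.02-fold, because both untreated arrays were dim. On the log2 scale the mean was higher with RA by 2.10 ± 0.17 (SE of the limma fit), the second-highest value of the 12015 genes tested, with the same direction in 4 of 4 pairs. This rank describes the value that led to the choice of the gene. Against AML12, the v-erbA line was lower by at least 1.47-fold (3 h) and at least 2.47-fold (24 h) without RA, and by 6.61-fold (3 h) and 5.39-fold (24 h) with RA. The mean difference was -2.07 ± 0.17.

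Nr1h4, the bile acid receptor gene, was bright on all arrays and moved far less. Its signals in AML12 were 2235 untreated and 2087 with RA at 3 h, and 2551 untreated and 1801 with RA at 24 h. In the v-erbA line they were 2130 untreated and 1968 with RA at 3 h, and 1936 untreated and 1518 with RA at 24 h. RA-treated arrays were the lower ones in all 4 pairs, by 1.07-fold and 1.08-fold at 3 h and by 1.42-fold and 1.28-fold at 24 h (AML12 first), and RA and untreated groups overlapped. The receptor and its known target Nr0b2 thus had opposite signs with RA, -0.26 ± 0.08 and 2.10 ± 0.17.

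Of the synthesis genes, Cyp27a1 gave no such RA difference, and Cyp7b1 was too dim for one to be judged. Cyp27a1, the mitochondrial sterol hydroxylase that opens the alternative route to bile acids, had AML12 signals of 322 and 544 units untreated and of 331 and 453 with RA, at 3 h and 24 h respectively. In the v-erbA line these were 335 and 460 untreated, and 335 and 502 with RA. The 24 h arrays were high and the 3 h arrays low whatever the line or treatment, and RA and untreated arrays overlapped (RA difference -0.02 ± 0.07). A second probe set of Cyp27a1 stayed between 3.70 and 8.98 units and carries no level. Cyp7b1, an oxysterol hydroxylase of the same route, was dim on every array with each of its 3 probe sets, from 2.20 to 28.8 units.

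Of the transporters of the canalicular and sinusoidal membranes that take up or secrete bile salts, Slc10a1 and Abcb11 were mostly dim. Slc10a1, the sodium-dependent uptake carrier, ranged from 18.0 to 67.3 units with its brighter probe set and from 6.83 to 75.3 with the other. The untreated AML12 array of 24 h was the highest with both probe sets. Only with the other probe set did it exceed the pooled median, as the 1 array to do so. Abcb11, the bile salt export pump, ranged from 4.51 to 37.2 units. No fold is given for either.

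Abcc2, which exports conjugated organic anions into bile, had AML12 signals of 306 untreated and 397 with RA at 3 h, and of 353 untreated and 467 with RA at 24 h. In the v-erbA line they were 178 and 225 at 3 h, and 171 and 243 at 24 h. Each RA array exceeded its untreated partner, by 1.30-fold and 1.32-fold in AML12 and by 1.26-fold and 1.42-fold with v-erbA (3 h, then 24 h). This response was known when the gene was chosen, so the values describe it without a test. All 4 v-erbA arrays lay below all 4 AML12 arrays, so RA and untreated arrays overlapped across lines. Its probe set carries the manufacturer's suffix for probes shared between transcripts, as does that of Slc51a.

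Abcc3, which exports conjugated bile acids towards blood, was among the bright genes. AML12 signals were 1272 untreated and 1285 with RA at 3 h, and 1669 untreated and 1323 with RA at 24 h; v-erbA signals were 1775 and 1771 at 3 h, and 2371 and 2134 at 24 h. At 3 h RA and untreated arrays differed by 1.01-fold or less, and at 24 h the RA arrays were lower by 1.26-fold in AML12 and 1.11-fold with v-erbA. All v-erbA arrays lay above all AML12 arrays.

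Slc51b and Slc51a encode the beta and alpha subunits of one transporter, and their patterns differed. Slc51b, the beta subunit, had AML12 signals of 73.3 untreated and 223 with RA at 3 h, and of 63.5 untreated and 180 with RA at 24 h. In the v-erbA line they were 87.5 untreated and 156 with RA at 3 h, and 82.7 untreated and 121 with RA at 24 h. All 4 RA arrays lay above all 4 untreated arrays, and the mean was higher with RA by 0.95 ± 0.14, the tenth-highest value among the genes tested. As for Nr0b2, this separation and rank describe a response that was known when the gene was chosen.

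In AML12, Slc51b was at least 3.03-fold and at least 2.45-fold higher with RA at 3 h and 24 h, its untreated arrays being dim, and in the v-erbA line 1.79-fold and 1.46-fold higher. Slc51a, the alpha subunit, separated by time instead. At 3 h its signals were 17.02 untreated and 24.0 with RA in AML12, and 25.8 and 28.4 with v-erbA. At 24 h they were 98.8 and 99.5 in AML12 and 66.9 and 66.8 with v-erbA, so that only the AML12 arrays of 24 h exceeded the pooled median. The RA difference of Slc51a was 0.08 ± 0.16.

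**Figure D2:**
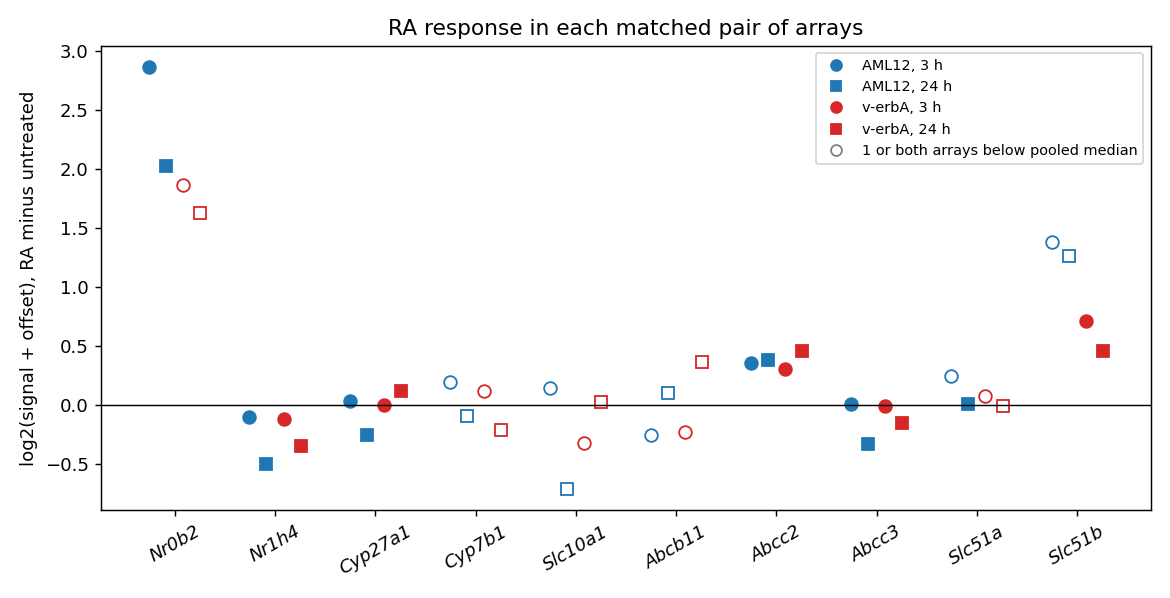
Difference of log2(signal + 19.95) between the RA-treated and the untreated array of each of 4 matched pairs, blue for AML12 and red for the v-erbA line, circles for 3 h and squares for 24 h; open symbols mark pairs in which 1 or both arrays lay below the pooled median. Nr0b2, Slc51b and Abcc2 lie above 0 in all 4 pairs and Nr1h4 below 0 in all 4.

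The comparison named by the design, the RA response with against without v-erbA, was tested for the 7 members that passed the filter on dim genes (2 or more of 8 arrays above the pooled median); Cyp7b1, Slc10a1 and Abcb11 did not pass. The RA response of Nr0b2 was 2.45 in AML12 and 1.75 with v-erbA, a difference of -0.70 ± 0.25. That difference was -0.41 without the untreated AML12 array of 3 h and -0.43 without the AML12 RA array of 3 h. It was -0.99 without the untreated AML12 array of 24 h. With dim signals set to the pooled median the responses were 2.45 and 0.81, a difference of -1.64. Both untreated v-erbA arrays were dim and no AML12 array was, so this setting could only lower the v-erbA response. The 0.81 is thus a lower bound, and the growth to -1.64 followed from the setting. The RA response of Slc51b was 1.32 in AML12 and 0.59 with v-erbA, a difference of -0.73 ± 0.17. Neither passed (limma adjusted p = 1.00 for both). That of Abcc2 was 0.37 and 0.38, a difference of 0.01 ± 0.14. An unadjusted limma p under 0.05 was found for 2 of 7 members, Nr0b2 and Slc51b, and for 201 of all genes. Both members had been chosen with their RA response on these arrays known, so their count is not independent of that choice. With limma, 0 of 7 members and 0 of 12015 genes passed (0%). Leaving out the AML12 RA array of 3 h gave 2 genes and the untreated AML12 array of 3 h gave 1, none of them a member. A p that misses the threshold does not show equal responses, and each line contributed 2 pairs.

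The RA response at 24 h was set against that at 3 h in the same way. Nr0b2 responded by 2.37 at 3 h and 1.83 at 24 h, a difference of -0.54 ± 0.29 (limma adjusted p = 0.709) that ran from -0.88 to -0.20 with 1 array left out; it was over 1.5 times larger without either v-erbA array of 3 h and over 1.5 times smaller without either AML12 array of 3 h. Nr1h4 had -0.11 and -0.42, a difference of -0.32 ± 0.11, and Abcc3 had 0.01 and -0.24, a difference of -0.25 ± 0.09 (adjusted p = 0.623 for both). Of the 7 members 0 passed, 2 of them, Nr1h4 and Abcc3, with an unadjusted p under 0.05; among all genes 2 passed (0.0166%) and 905 had an unadjusted p under 0.05. That count of 2 was 96 without the untreated v-erbA array of 24 h and 17 without the v-erbA RA array of 24 h, and it was 1 without either AML12 RA array. It was 0 without the untreated AML12, untreated v-erbA or v-erbA RA array of 3 h. The count of members was 0 each time.

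The v-erbA line was then compared with AML12 in 4 pairs, each of equal treatment and time. Among all genes tested, 53.4% passed the threshold of a limma adjusted p under 0.05. Of the 6 members tested, that is without Nr0b2, 1 rose and 1 fell, and the count of members is no larger than that background gives. Abcc2 fell by 0.83 ± 0.06 (limma adjusted p = 8.65e-06, lower in 4 of 4 pairs), and the line was lower by 1.72-fold to 2.06-fold. Abcc3 rose by 0.53 ± 0.06 (adjusted p = 9.52e-05, higher in 4 of 4 pairs), by 1.38-fold to 1.61-fold.

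The remaining members did not pass for line. Nr1h4 differed by -0.20 ± 0.08 (limma adjusted p = 0.0505); it passed without the untreated AML12 array of 3 h (-0.27, adjusted p = 0.0124) and without the v-erbA RA array of 3 h (-0.27, adjusted p = 0.0144), while without the untreated AML12 array of 24 h the difference was -0.11, and over the 8 arrays left out in turn the adjusted p reached 0.169. Slc51b differed by -0.12 ± 0.14 (adjusted p = 0.528), the mean of a higher v-erbA signal without RA and a lower one with RA. Slc51a differed by -0.12 ± 0.16 and Cyp27a1 by -0.01 ± 0.07 (adjusted p = 0.559 and 0.959).

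For time, 7 members were tested. Cyp27a1 rose by 0.54 ± 0.07 from 3 h to 24 h (limma adjusted p = 3.01e-04), with 24 h signals of 453 to 544 units and 3 h signals of 322 to 335 that did not overlap. Abcc3 rose by 0.28 ± 0.06 (adjusted p = 0.00695). Slc51a rose by 1.22 ± 0.16 (adjusted p = 3.36e-04), at least 1.11-fold since all 3 h arrays were dim; it passed the filter through its 24 h arrays alone, and with dim signals set to the pooled median the difference was 0.18 (adjusted p = 0.123). Each rise was seen in 4 of 4 pairs. Nr0b2 (0.22 ± 0.17), Slc51b (-0.21 ± 0.14), Nr1h4 (-0.13 ± 0.08) and Abcc2 (0.12 ± 0.06) did not pass (adjusted p from 0.178 to 0.343); Nr1h4 passed without the untreated AML12 array of 24 h (-0.22, adjusted p = 0.0116).

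Of the 7 members, Cyp27a1, Abcc3 and Slc51a passed, or 2 of 7 with dim signals set to the pooled median, where Slc51a did not; 34.7% of all genes passed, so neither count stands apart from the background. Abcb11 showed the same order below the pooled median, 4.51 to 11.9 units at 3 h and 24.3 to 37.2 at 24 h. Without the filter its difference was 0.87 ± 0.14 (limma adjusted p = 0.00116 over 18192 genes, of which 4701 were called). Signals this dim carry little information, and no fold is given. Beside these values stands a property of the time comparison in general: of 123 genes with a change of at least 2-fold and a second probe set above the filter, the second probe set changed at least 2-fold in the same direction for 11. Slc51a, Abcc3 and Abcb11 have 1 probe set each, and the second one of Cyp27a1 was dim, so none of these 4 could be checked in this way.

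**Figure D3:**
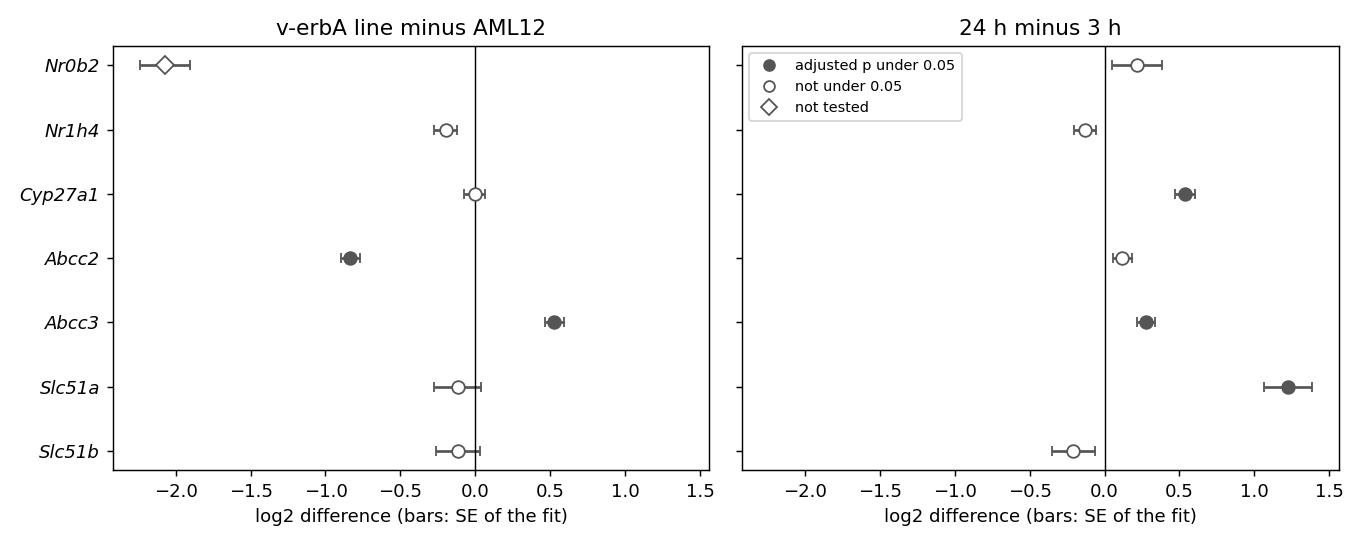
Log2 difference with its SE from the limma fit for the 7 members that passed the filter, for the v-erbA line minus AML12 (left) and for 24 h minus 3 h (right), over 4 matched pairs each; filled circles have an adjusted p under 0.05 and the diamond was not tested. Abcc2 lies at -0.83 and Abcc3 at 0.53 for line, and Slc51a lies at 1.22 for time.

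The rest of the bile acid pathway was taken from a list of 60 other genes, of which 56 were on the array and 40 passed the filter. With RA, 0 rose and 2 fell (1.17% of all genes passed). Ppara, the fatty acid receptor, fell by 0.93 ± 0.11 (limma adjusted p = 0.00761), with signals of 343 to 607 units with RA and 750 to 1219 without; it did not pass without the mean-variance trend (adjusted p = 0.0742). Hnf4a, a liver transcription factor known to drive Cyp7a1, fell by 0.27 ± 0.05 (adjusted p = 0.0462), but not without any single array other than the untreated AML12 array of 3 h (adjusted p from 0.0713 to 0.169), nor with arrays centred (0.0641), quantile normalization (0.0680), no mean-variance trend (0.203) or dim signals set to the pooled median (0.0638, all adjusted p). The median of the 40 was -0.01, against 0.00 over all genes. None of the 12 synthesis genes, 6 conjugation genes or 10 transporters of this list passed for RA. The background of 141 called genes was 35 without the AML12 RA array of 3 h, 86 without that of 24 h, 49 without the untreated AML12 array of 3 h, 71 and 63 without the untreated v-erbA arrays of 3 h and 24 h, and 48 without the v-erbA RA array of 24 h.

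With v-erbA 6 of these 40 genes rose and 19 fell, 25 in all, where 53.4% of all genes passed, and their median was -0.20 against 0.01 over all genes. Of the 12 synthesis genes 8 fell and 2 rose. Akr1d1, the steroid reductase of bile acid synthesis, fell by 1.53 ± 0.16 (limma adjusted p = 6.86e-05), and Cyp3a11, a detoxifying enzyme, fell by 1.75 ± 0.27 (adjusted p = 5.28e-04). Baat, which conjugates bile acids with taurine or glycine, was at least 1.48-fold lower, its v-erbA arrays all being dim (-1.001 ± 0.29, adjusted p = 0.0150); it did not pass without the untreated v-erbA array (-0.74, adjusted p = 0.0556) or the v-erbA RA array (-0.88, adjusted p = 0.0555) of 24 h, nor with dim signals set to the pooled median (-0.48, adjusted p = 0.0635), and it had passed the filter through its AML12 arrays alone. Of 3 uptake carriers 2 passed. Slc10a2, the sodium-dependent carrier of ileum and bile ducts, rose by 0.73 ± 0.15 (342 to 433 units with v-erbA and 146 to 283 without), and Slco2b1 rose by 0.53 ± 0.10, while Slco1b2 differed by -0.07 ± 0.10 (adjusted p = 0.593). Klb, the coreceptor of endocrine fibroblast growth factors, rose by 0.44 ± 0.09 (adjusted p of at most 0.00317 for Slc10a2, Slco2b1 and Klb).

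With time 9 of the 40 rose and 3 fell, 12 in all, where 34.7% of all genes passed. Nr5a2, a receptor known to bind the promoters of Cyp7a1 and Nr0b2, rose by 0.55 ± 0.07 (limma adjusted p = 2.10e-04) and Ppara by 0.46 ± 0.11 (adjusted p = 0.0132). Vdr, the vitamin D receptor gene, was at least 1.43-fold lower at 24 h, where all arrays were dim (-1.06 ± 0.18, adjusted p = 0.00158). Vdr had passed the filter through its 3 h arrays alone, so its adjusted p is not independent of that selection. With dim signals set to the pooled median its difference shrank to -0.42 and passed. That setting gave all 24 h arrays of Vdr the same value and left the selection in place, so the pass adds no support. Hnf4a fell by 0.25 ± 0.05 (adjusted p = 0.00557). Abcc6 rose by 0.43 ± 0.12 and Star, a cholesterol carrier of steroid synthesis, fell by 0.31 ± 0.10. Abcc6 did not pass without any single AML12 array or the untreated v-erbA array of 3 h (adjusted p from 0.0530 to 0.0717), nor with dim signals set to the pooled median (0.34, adjusted p = 0.0595), and Star did not without those or the v-erbA RA array of 24 h (adjusted p from 0.0524 to 0.119). The count of 12 was 6 without the AML12 RA array of 3 h, and 7 without the untreated AML12 array of 3 h, the untreated v-erbA array of 3 h or the v-erbA RA array of 24 h.

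**Figure D4:**
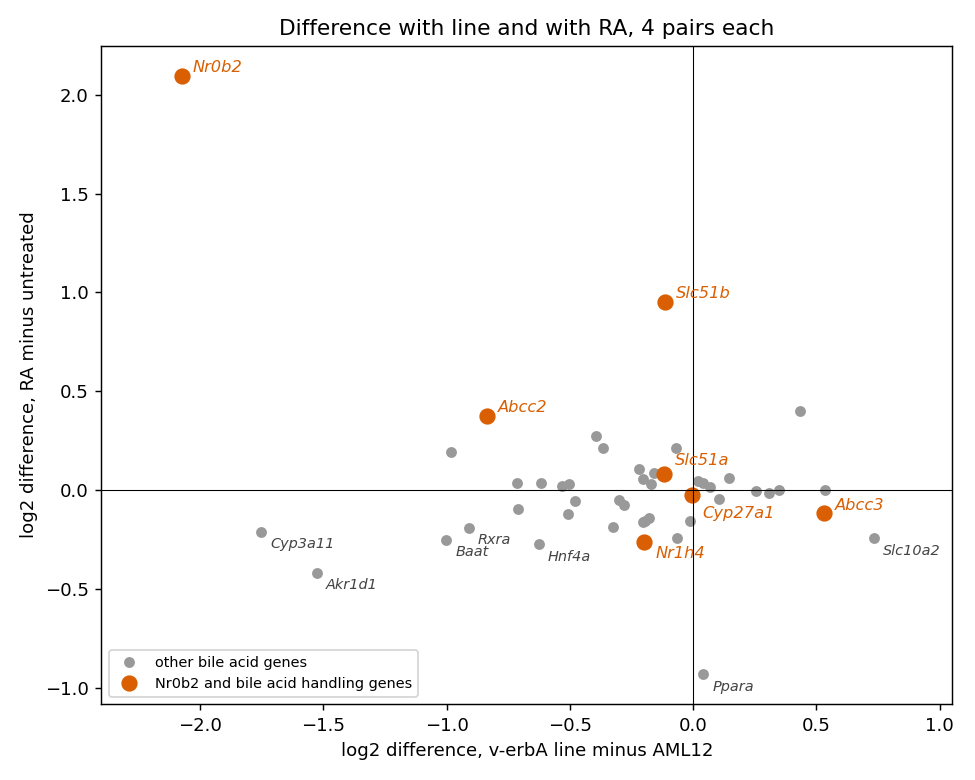
Log2 difference with RA (vertical) against that with the v-erbA line (horizontal), over 4 matched pairs each, for the 7 members that passed the filter (orange) and the 40 other bile acid genes (grey). Nr0b2 stands at the upper left with -2.07 and 2.10, Slc51b at -0.12 and 0.95, and Ppara at the bottom with an RA difference of -0.93.

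The genes most like Nr0b2 over the 8 arrays were sought among 1417 others with an SD of at least 0.5 on the log2 scale, by Pearson's r across the 8 arrays, which share line, treatment and time. They were Fstl3, a secreted activin antagonist (r = 0.99), the acyl-CoA thioesterase gene Acot3 (r = 0.97), the flavin monooxygenase gene Fmo5 (r = 0.95), the fatty aldehyde dehydrogenase gene Aldh3a2 (r = 0.95) and Gdpd5 (r = 0.90). In Fstl3 the untreated arrays read 996 and 1229 units in AML12 and 655 and 731 with v-erbA, at 3 h and 24 h. With RA they read 1915 and 1816 in AML12 and 1027 and 951 with v-erbA. As for Nr0b2, the RA-treated v-erbA arrays fell near the untreated AML12 arrays. Those most like Slc51b were the RA receptor gene Rarb (r = 0.92), the corepressor gene Nrip1 (r = 0.89) and the orphan receptor gene Gprc5b (r = 0.89). Rarb was dim on all but the AML12 and v-erbA RA arrays of 3 h (82.7 and 78.5 units).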

How the data were processed

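Biotin-labelled total RNA of 8 samples was hybridised to Affymetrix arrays (per the labels' protocols). In the deposited table there is 1 linear signal intensity per probe set and array; how probes were summarized and scaled is not given in these sources, and the authors' scaling was kept. Of 45037 probe sets, 1 was incomplete and left out; 34944 named 1 gene, 932 several and 9160 none (symbols from the platform annotation). The probe set with the highest mean signal stood for a gene. Genes with at least 2 of 8 arrays above the pooled median were tested (12015; 6177 were dim).

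Values were log2(signal + 19.95), the offset being the 20th percentile of all signals. Line, treatment and time were fitted additively over all 8 arrays with limma 3.58.1 (R 4.3.3; empirical Bayes with trend; 4 residual degrees of freedom; Benjamini-Hochberg over all genes), and differences of RA responses with a line by treatment or treatment by time term (3 residual degrees of freedom). The fit was tested on simulated data. Where all arrays of the lower group, or the lower array, were dim, a fold is the higher value over the pooled median ("at least"). The number of arrays limits the precision.

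Named were all members, other bile acid genes called for RA, the 3 highest and 3 lowest called for line and for time, and the genes most correlated with Nr0b2 (5) and Slc51b (3). The members and lists were chosen with earlier results of these data known. Alternatives were other offsets (5 and 64 units), no filter, other scalings, no trend, all probe sets, all 2-way interactions, each array left out and, chosen after seeing the data, dim signals set to the pooled median. Figures used matplotlib 3.10.9 in Python 3.11.15.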

Additional observations from a re-analysis of the deposited data

Results flagged for a closer look

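Slc51b was set apart because its difference between lines had opposite signs without and with RA, in both pairs each. The gene had been chosen with its RA response known. Its untreated signals lay near the pooled median: 73.3 and 63.5 units in AML12, both dim, and 87.5 and 82.7 with v-erbA (3 h, then 24 h). The untreated v-erbA signal was thus higher by at least 1.19-fold and at least 1.125-fold. Without RA the v-erbA line was higher by 0.25 on the log2 scale, and with RA it was lower by 0.48 (value -0.48). The difference between these is the same as the difference of RA responses, which did not pass (limma adjusted p = 1.00).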

How the results depend on the processing

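With 1 array per group, every test rests on the spread among 8 arrays, and signals near or below the pooled median, as for Slc51a, Abcb11, Slc10a1 and Cyp7b1, carry little information. The line differences of Abcc2 and Abcc3 and the time differences of Cyp27a1 and Abcc3 kept their direction and passed under all 17 alternatives. Nr1h4, not called for line, passed with arrays centred, with all probe sets and with all 2-way interactions. The Nr0b2 differences shrank to -1.65 (line) and 1.66 (RA) with an offset of 64 units, and to -1.60 and 1.63 with dim signals set to the pooled median.

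With all probe sets 11100 were called for line, 6696 for time and 260 for RA. With all 2-way interactions in the model, which leaves 1 residual degree of freedom, 582 genes were called for RA, 4 for the difference of RA responses between lines and 87 for that between times, and 8 other bile acid genes for RA. Without the mean-variance trend 17 genes and 0 other bile acid genes were called for RA, and 0 genes for the difference between times. That last count was 1 with an offset of 64 units or quantile normalization and 0 with dim signals set to the pooled median, and other bile acid genes called for RA numbered 1 under quantile normalization and with dim signals so set. Leaving out 1 array at a time gave 35 to 142 genes and 1 to 2 other bile acid genes for RA, 6 to 14 other bile acid genes for time, 0 to 2 genes for the difference between lines and 0 to 96 for that between times. The sign of uncalled differences of RA responses turned with the array left out. Between lines these ran from -0.15 to 0.28 for Nr1h4, -0.10 to 0.12 for Abcc2, -0.0755 to 0.239 for Abcc3 and -0.40 to 0.22 for Slc51a; between times, from -0.238 to 0.0684 for Cyp27a1, -0.44 to 0.12 for Slc51a and -0.46 to 0.0884 for Slc51b. Some of these settings also had fewer samples, fewer residual degrees of freedom or more features tested. The cause of the changes was not tested.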
